A study of Chlamydomonas reinhardtii with 6 samples.

Results

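Carbonic anhydrases CAH1 to CAH5 are 5 genes of the unicellular green alga Chlamydomonas reinhardtii, chosen by their v5.5 identifiers among the 17736 gene models of an RNA sequencing table. All 5 passed the filter of a mean of at least 1 FPKM (counts scaled to gene length and to the total of the library), as did 10878 gene models in all. The libraries came from 3 cultures of a CMD1 knockout (cmd1 KO) and 3 wild type (WT) cultures, all labelled strain CC125. Both genotypes were grown mixotrophically in acetate medium, at 25 °C under dim light of 20 µmol photons per m2 and second, then moved at 100000 cells per ml to high salt medium under 300 µE. CMD1 is a relative of the TET dioxygenases and makes a DNA base modification from vitamin C, and the comparison asks what its loss does to gene expression. The sources used here do not give the length of the light exposure, the CO2 supply or the number of mutant clones. The level of CMD1 itself was not analysed here, so the knockout was not checked.

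Carbonic anhydrases interconvert CO2 and bicarbonate. In Chlamydomonas several of them serve the carbon concentrating mechanism, which raises CO2 around Rubisco in the pyrenoid when inorganic carbon is scarce. CAH1 and CAH2 are alpha-type enzymes of the periplasmic space, where they speed the supply of inorganic carbon to the cell surface; CAH1 is the classic gene induced by low CO2, and CAH2 is its weakly expressed relative. CAH3 is an alpha-type enzyme of the thylakoid lumen, where it releases CO2 from bicarbonate near the pyrenoid. CAH4 and CAH5 are beta-type enzymes of the mitochondrion, encoded by nearly identical genes that are also known to respond to low CO2.

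CAH1 (Cre04.g223100.v5.5) and CAH2 (Cre04.g223050.v5.5) are neighbours on chromosome 4 of the v5.5 assembly. CAH2 spans 2656608 to 2661032 and CAH1 spans 2662125 to 2666375, with 1092 bases between them. CAH4 (Cre05.g248400.v5.5) and CAH5 (Cre05.g248450.v5.5) are neighbours on chromosome 5. CAH5 spans 768025 to 770332 and CAH4 spans 772398 to 774699, with 2065 bases between them. CAH3 (Cre09.g415700.v5.5) lies alone on chromosome 9, from 7702059 to 7704127. The gene lengths behind the FPKM values were 1937 bases for CAH1, 2245 for CAH2, 1399 for CAH3, 1373 for CAH4 and 1364 for CAH5. The sources used here do not say how reads that match both CAH4 and CAH5, or both CAH1 and CAH2, were counted, so each pair is also described by its sum.

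The libraries stood apart in ways that touch every value below. Total counts ran from 38875025 to 47869886 in the cmd1 KO libraries and from 39072635 to 45087656 in the WT libraries. The factors of the trimmed mean of M-values (TMM), which scale libraries so that the typical gene is level, were 0.51, 0.49 and 1.38 in replicates 1, 2 and 3 of cmd1 KO, against 1.31, 1.29 and 1.70 in WT replicates 1, 2 and 3. A gene that held a constant share of all counts therefore had a higher TMM-scaled value in cmd1 KO replicates 1 and 2 than in the other 4 libraries. Each comparison is given on both scales for that reason, and replicate 3 is shown apart because both of its libraries differed from replicates 1 and 2. The p-values over all 6 libraries measure the spread between labelled biological replicates. Those within replicates 1 and 2, and those for the difference of replicate 3, rest only on the spread between replicates 1 and 2.

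By deposited FPKM, each of the 5 carbonic anhydrases was lower in every cmd1 KO library than in every WT library. This held for 5 of 5 genes, whereas 29.7% of all tested genes had their 3 cmd1 KO values below their 3 WT values. Each of the 5 exact permutation tests (two-sided) gave p = 0.1, the smallest that 3 libraries against 3 allow. In bulk libraries a lower level in each cell and a high level in fewer cells cannot be told apart. On this scale most genes were lower in cmd1 KO: 88.1% of the tested genes had a negative log2 difference with library sizes alone, with a median of -0.81, against a median of -0.05 with TMM scaling.

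CAH1, the periplasmic enzyme of low CO2, stood at 135, 127 and 198 FPKM in cmd1 KO replicates 1, 2 and 3, against 453, 340 and 614 FPKM in WT replicates 1, 2 and 3. Replicate 3 held the highest value of each genotype, and the genotypes did not overlap. These values rested on 12480, 9784 and 14906 counts in cmd1 KO and 39526, 27182 and 46447 counts in WT. The mean was 153 ± 39.0 FPKM in cmd1 KO and 469 ± 138 FPKM in WT (SD, n = 3 each), so cmd1 KO held 32.7% of the WT mean. Among all gene models ranked by FPKM, CAH1 took places 282, 298 and 335 in cmd1 KO and 170, 185 and 157 in WT.

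CAH2, the weak periplasmic relative, stood at 2.61, 2.19 and 6.50 FPKM in cmd1 KO replicates 1, 2 and 3, against 7.96, 7.64 and 13.4 FPKM in WT replicates 1, 2 and 3. Its values rested on far fewer reads than those of CAH1, with 281, 196 and 567 counts in cmd1 KO and 806, 709 and 1175 counts in WT. The lowest of these, 196 counts, has an exact 95% Poisson interval of 170 to 225, which covers counting error only. The mean was 3.77 ± 2.37 FPKM in cmd1 KO and 9.67 ± 3.23 FPKM in WT (SD, n = 3 each), or 39.0% of WT. The log2 ratio of the mean FPKM, cmd1 KO over WT, was -1.36, and -2.01 without cmd1 KO replicate 3.

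CAH3, the thylakoid lumen enzyme, stood at 17.6, 17.6 and 42.2 FPKM in cmd1 KO replicates 1, 2 and 3, against 74.4, 64.4 and 44.8 FPKM in WT replicates 1, 2 and 3. The libraries of replicates 1 and 2 were far apart by genotype, and those of replicate 3 nearly level. The counts were 1179, 980 and 2296 in cmd1 KO and 4692, 3724 and 2449 in WT. The mean was 25.8 ± 14.2 FPKM in cmd1 KO and 61.2 ± 15.1 FPKM in WT (SD, n = 3 each). Their log2 ratio was -1.25, and -1.80 without cmd1 KO replicate 3. The place of CAH3 by FPKM was 1216, 1210 and 1095 in cmd1 KO and 587, 601 and 1093 in WT.

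CAH4 stood at 474, 449 and 429 FPKM in cmd1 KO replicates 1, 2 and 3, against 799, 542 and 1889.8 FPKM in WT replicates 1, 2 and 3. CAH5 stood at 408, 384 and 423 FPKM in cmd1 KO replicates 1, 2 and 3, against 930.3, 613 and 1977 FPKM in WT replicates 1, 2 and 3. By FPKM both mitochondrial genes were close to level over the cmd1 KO libraries and widely spread over the WT libraries, where replicate 3 was highest. CAH4 had 31160, 24577 and 22913 counts in cmd1 KO and 49454, 30735 and 101384 counts in WT. CAH5 had 26665, 20874 and 22455 counts in cmd1 KO and 57216, 34555 and 105374 counts in WT. The WT library of replicate 3 thus held the most counts of both genes. The coefficient of variation of FPKM was 4.98% for CAH4 and 4.91% for CAH5 in cmd1 KO, against 66.5% and 60.8% in WT. That contrast was not there with TMM scaling, where it was 49.0% for CAH4 and 44.3% for CAH5 in cmd1 KO, against 50.1% and 44.7% in WT. Summed over CAH4 and CAH5, cmd1 KO held 1208, 1141 and 1167 CPM (counts scaled to the library total as in FPKM, but not to gene length, and here without TMM), against 2366, 1580.3 and 5292 CPM in WT. The mean FPKM of CAH4 was 451 ± 22.5 in cmd1 KO and 1077 ± 716 in WT, and that of CAH5 was 405 ± 19.9 in cmd1 KO and 1174 ± 714 in WT (SD, n = 3 each). WT replicate 3 carried much of this distance: the log2 ratio of the mean FPKM, cmd1 KO over WT, was -1.26 for CAH4 and -1.53 for CAH5, and -0.57 and -0.93 without that library. By place among all gene models the genotypes of CAH4 overlapped, at 140, 151 and 197 in cmd1 KO and 127, 150 and 86 in WT. Those of CAH5 did not, at 155, 163 and 202 in cmd1 KO and 117, 138 and 83 in WT.

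**Figure D1:**
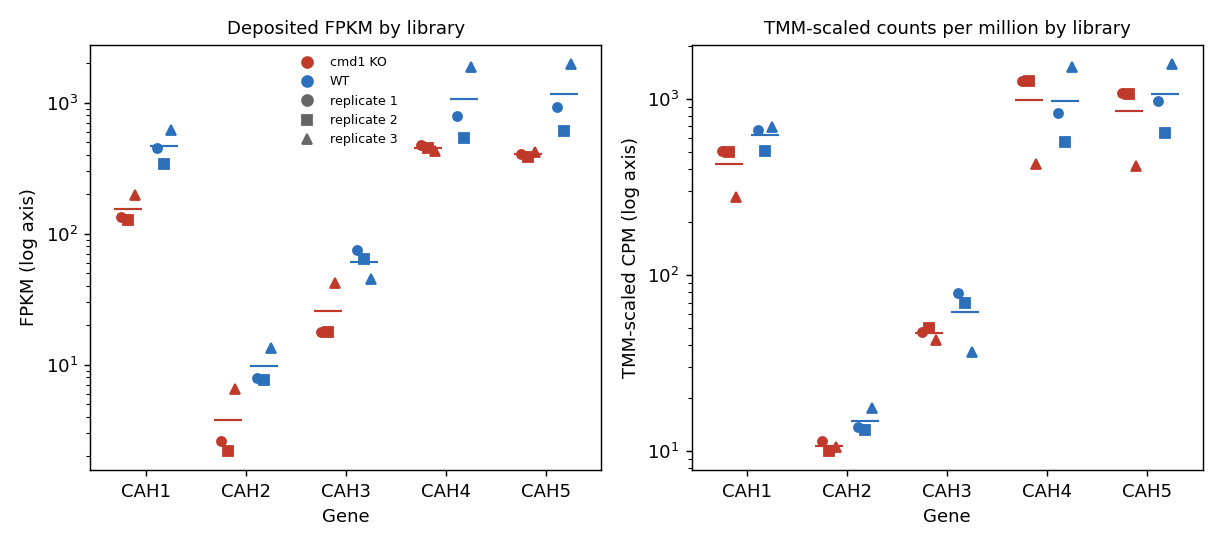
Levels of the 5 carbonic anhydrase genes in each library, as deposited FPKM (left) and as TMM-scaled CPM (right), both on log axes, with cmd1 KO left of WT and a bar at each group's mean (n = 3). By FPKM every cmd1 KO point lies below every WT point of the same gene; with TMM scaling the groups stay apart for CAH1 and CAH2 and overlap for CAH3, CAH4 and CAH5.

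Per length, the order of mean FPKM in cmd1 KO was CAH4, CAH5, CAH1, CAH3 and CAH2, at 451, 405, 153, 25.8 and 3.77. In WT it was CAH5, CAH4, CAH1, CAH3 and CAH2, at 1174, 1077, 469, 61.2 and 9.67. The means of CAH4 and CAH5 differed by less than their SD in WT. In each of the 6 libraries the mitochondrial pair stood above CAH1, CAH1 above CAH3 and CAH3 above CAH2. Across libraries of WT the ranges of CAH4 and CAH1 overlapped, since CAH4 in replicate 2 had 542 FPKM and CAH1 in replicate 3 had 614 FPKM.

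With TMM scaling the genotypes came closer for each gene. CAH1 had 506, 502 and 278 TMM-scaled CPM in cmd1 KO replicates 1, 2 and 3, against 670.3, 508 and 698 CPM in WT replicates 1, 2 and 3. CAH2 had 11.4, 10.1 and 10.6 CPM in cmd1 KO, against 13.7, 13.3 and 17.7 CPM in WT. These 2 genes of 5 kept all cmd1 KO values below all WT values, though for CAH1 the closest values, 506 and 508, were nearly equal. Of all tested genes, 13.6% had such an order with TMM scaling.

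CAH3 had 47.8, 50.3 and 42.8 CPM in cmd1 KO replicates 1, 2 and 3, against 79.6, 69.6 and 36.8 CPM in WT replicates 1, 2 and 3. CAH4 had 1264, 1261 and 428 CPM in cmd1 KO, against 839, 575 and 1525 CPM in WT. CAH5 had 1082, 1071 and 419 CPM in cmd1 KO, against 970.3, 646 and 1585 CPM in WT. For these 3 genes the genotypes overlapped, because replicate 3 ordered them the other way from replicates 1 and 2. The two-sided exact permutation p was 0.1 for CAH1 and CAH2, 0.4 for CAH3, 1 for CAH4 and 0.6 for CAH5.

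Over all 6 libraries, none of the 5 carbonic anhydrases passed the test for a genotype difference. The test was edgeR's quasi-likelihood test with TMM scaling and Benjamini-Hochberg adjustment over all 10878 tested genes, of which 0% passed an adjusted p of 0.05. The log2 difference of cmd1 KO over WT was -0.55 for CAH1 (95% interval -1.43 to 0.34, adjusted p = 0.43 in edgeR). It was -0.48 for CAH2 (-1.16 to 0.21, adjusted p = 0.39 in edgeR) and -0.40 for CAH3 (-1.28 to 0.48, adjusted p = 0.56 in edgeR). CAH4 was at 0.01 (-1.35 to 1.37, adjusted p = 0.997 in edgeR) and CAH5 at -0.32 (-1.57 to 0.94, adjusted p = 0.77 in edgeR). The intervals are wide: all 5 hold a fall of more than 2-fold, and that of CAH4 also a rise of more than 2-fold.

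Other tools gave 0 of the 5 genes too. Of these, limma and edgeR with library sizes alone called 0 of all 10878 tested genes, so their result does not set the members apart. No member had an unadjusted p under 0.05 in edgeR with TMM scaling, where 17.9% of all tested genes did. DESeq2, which called 6.32% of the tested genes, called none of the 5, with a smallest adjusted p of 0.42. limma on log2(FPKM + 1) gave 4 of them an unadjusted p under 0.05, all lower, as it did for 24.7% of tested genes, and a smallest adjusted p of 0.18. With library sizes alone, edgeR gave log2 differences of -1.61 for CAH1, -1.36 for CAH2, -1.25 for CAH3, -1.26 for CAH4 and -1.53 for CAH5, with 3 unadjusted p-values under 0.05 (lower with such a p in 14.6% of tested genes) and a smallest adjusted p of 0.31. Against the median of all tested genes on that scale, -0.81, each of the 5 lay lower.

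Within replicates 1 and 2 the mitochondrial genes rose, the lumenal gene fell, and the periplasmic genes did not pass, relative to the typical gene. The fit took 2 libraries per genotype with TMM scaling, and called 34.3% of tested genes higher and 37.8% lower in cmd1 KO, so a call was common on this small spread. On the log2 scale CAH4 rose by 0.83 ± 0.14 (SE; adjusted p = 3.8e-06 in edgeR) and CAH5 by 0.41 ± 0.14 (SE; adjusted p = 0.012 in edgeR). CAH3 fell by 0.61 on the log2 scale (SE 0.15, adjusted p = 0.00054 in edgeR). CAH1 was at -0.23 (95% interval -0.51 to 0.05, adjusted p = 0.14 in edgeR) and CAH2 at -0.33 (-0.70 to 0.04, adjusted p = 0.099 in edgeR). Summed to 1 feature, CAH4 and CAH5 rose by 0.62 (adjusted p = 0.00021 in edgeR), a value that does not depend on how reads were split between them, and the sum of CAH1 and CAH2 was at -0.23 (adjusted p = 0.13 in edgeR).

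The directions of CAH4 and CAH5 depended on the scaling, and the log2 differences of CAH5 and CAH1 on which WT library was kept. With library sizes alone all 5 genes fell within replicates 1 and 2, at log2 differences of -1.60 for CAH1, -1.70 for CAH2, -1.98 for CAH3, -0.54 for CAH4 and -0.96 for CAH5, with a largest adjusted p of 0.0023 in edgeR. On that scale 78.8% of the tested genes fell and 6.36% rose, and the median log2 difference was -1.44. The 2 mitochondrial genes thus lay above that median and CAH1, CAH2 and CAH3 below it. With TMM scaling and without WT replicate 2, CAH5 was at 0.15 and CAH1 fell by 0.41. That fit keeps 1 WT library and so holds no spread within WT. Without WT replicate 1, CAH5 was at 0.73.

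Replicate 3 gave another picture, with 1 library per genotype and so no test of its own. With TMM scaling the log2 ratio of cmd1 KO over WT in pair 3 was -1.83 for CAH4, -1.92 for CAH5 and -1.33 for CAH1. It was -0.74 for CAH2 and 0.22 for CAH3, so with this scaling CAH3 alone of the 5 was not lower in cmd1 KO there, while with library sizes alone it was at -0.09. Both mitochondrial genes were thus among the genes with the lowest ratios of that pair. The mitochondrial ratios lay above those of only 1.67% and 1.53% of tested genes, that of CAH1 above 2.90%, that of CAH2 above 9.29% and that of CAH3 above 69.96%. In pair 1 the same places were 70.7% for CAH4, 56.9% for CAH5, 39.8% for CAH1, 44.1% for CAH2 and 30.7% for CAH3. In pair 2 they were 80.9% for CAH4, 71.6% for CAH5, 51.9% for CAH1, 42.0% for CAH2 and 40.1% for CAH3. CAH4 and CAH5 were therefore in the upper part of the genes in pairs 1 and 2 and near the bottom in pair 3.

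**Figure D2:**
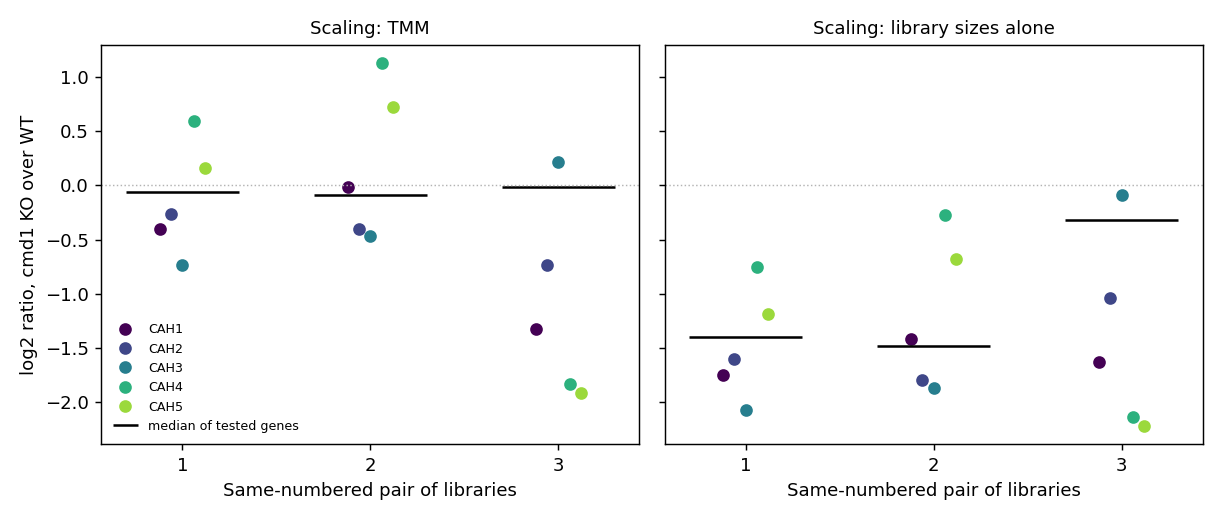
Log2 ratio of cmd1 KO over WT for the 5 genes in each same-numbered pair of libraries, with TMM scaling (left) and library sizes alone (right); black bars mark the median of the 10878 tested genes. CAH4 and CAH5 lie above the bar in pairs 1 and 2 and below it in pair 3, and CAH3 does the reverse.

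For 4 of the 5 genes the distance between genotypes was not the same in replicate 3 as in replicates 1 and 2. The edgeR interaction test with TMM scaling marked 27.3% of the tested genes as more positive and 23.4% as more negative in replicate 3, and, with 1 replicate 3 library in each genotype, it borrows the spread from replicates 1 and 2. On the log2 scale the effect in replicate 3 minus that in replicates 1 and 2 was -2.67 for CAH4 (SE 0.26, adjusted p = 1.1e-08 in edgeR) and -2.33 for CAH5 (SE 0.27, adjusted p = 1.2e-07 in edgeR). It was -1.10 for CAH1 (SE 0.25, adjusted p = 0.00074 in edgeR) and 0.82 for CAH3 (SE 0.26, adjusted p = 0.011 in edgeR). For CAH2 the difference was -0.41 (95% interval -1.04 to 0.21, adjusted p = 0.26 in edgeR). With library sizes alone, where 58.7% of tested genes were more positive and 5.85% more negative, CAH4 was at -1.60, CAH5 at -1.26 and CAH3 at 1.89, all past an adjusted p of 0.05. On that scale CAH1 was at -0.03 (adjusted p = 0.92 in edgeR) and did not pass.

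**Figure D3:**
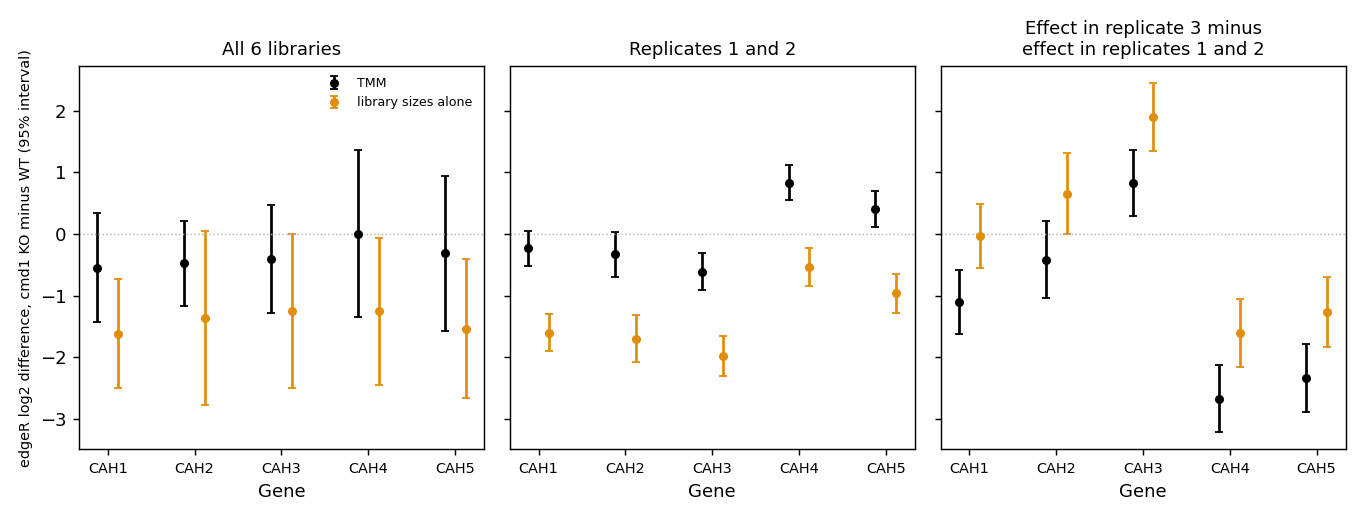
edgeR log2 differences of cmd1 KO minus WT with 95% intervals for the 5 genes over all 6 libraries (left), within replicates 1 and 2 (middle), and as the effect in replicate 3 minus that in replicates 1 and 2 (right), with TMM scaling in black and library sizes alone in orange. Over 6 libraries the TMM intervals of all 5 genes hold 0; in the middle panel CAH4 and CAH5 lie above 0 in black and below 0 in orange.

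Ratios between the genes within a library do not depend on the scaling of that library. Of the 10 ratios among the 5 genes, 1 kept the genotypes apart, that of CAH5 to CAH4. Random labels would keep 3 libraries against 3 apart with a probability of 0.1, so 1 of 10 is no excess. The 10 ratios also share the 5 genes, and the share over other pairs of genes was not analysed here. By FPKM the ratio of CAH5 to CAH4 was 0.861, 0.855 and 0.986 in replicates 1, 2 and 3 of cmd1 KO, against 1.16, 1.13 and 1.05 in WT replicates 1, 2 and 3. CAH4 was thus the higher of the pair in all 3 cmd1 KO libraries and CAH5 in all 3 WT libraries. The log2 ratio averaged -0.15 ± 0.12 in cmd1 KO and 0.15 ± 0.08 in WT (SD, n = 3 each), a difference of -0.31 (exact permutation test, two-sided, p = 0.1, the smallest possible, and 1 after Benjamini-Hochberg adjustment over the 10 ratios). CAH5 held 46.1%, 45.9% and 49.5% of the counts of the pair in cmd1 KO, with exact 95% Clopper-Pearson intervals of 45.7% to 46.5%, 45.5% to 46.4% and 49.0% to 49.96%. It held 53.6%, 52.9% and 51.0% in WT, with intervals of 53.3% to 53.9%, 52.5% to 53.3% and 50.7% to 51.2%. These intervals cover counting error only, and they do not cover reads of one gene counted to its near-identical copy.

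The other ratios overlapped between genotypes. The ratio of CAH1 to CAH2 was 51.5, 57.9 and 30.5 in replicates 1, 2 and 3 of cmd1 KO, against 56.8, 44.4 and 45.8 in WT replicates 1, 2 and 3. The ratio of CAH1 to CAH4 was 0.284, 0.282 and 0.461 in cmd1 KO, against 0.567, 0.627 and 0.325 in WT (exact permutation test, two-sided, p = 0.2). The ratio of CAH3 to CAH4 was 0.0371, 0.0391 and 0.0983 in cmd1 KO, against 0.0931, 0.119 and 0.0237 in WT. In both of the last ratios replicates 1 and 2 were lower in cmd1 KO and replicate 3 was higher.

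**Figure D4:**
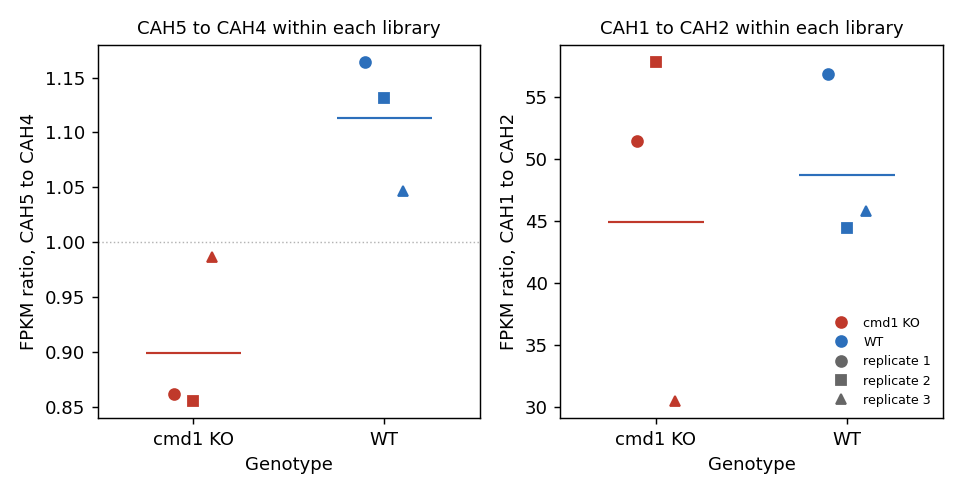
FPKM ratio of CAH5 to CAH4 (left) and of CAH1 to CAH2 (right) in each library, with cmd1 KO left of WT and a bar at each group's geometric mean (n = 3). All cmd1 KO ratios of CAH5 to CAH4 lie below 1 and all WT ratios above it, while the ratios of CAH1 to CAH2 overlap between genotypes.

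Members of a pair differed in how alike they moved. Likeness was the root mean square (RMS) difference of mean-centred log2 CPM over the 6 libraries, which fall into few sets and share their scaling. The gene most like CAH4 among all tested genes was CAH5, and the reverse, with an RMS difference of 0.17 and r = 0.97 over 6 libraries. The part of reads that match both of these near-identical genes in this likeness was not tested. CAH1 and CAH2 differed by 0.31 (r = 0.70), and CAH2 took place 162 among the genes closest to CAH1, while CAH1 took place 853 for CAH2. CAH1 was about as close to CAH5, at 0.33 (r = 0.86), and took place 18 among the genes closest to CAH5. CAH3 was far from the mitochondrial pair, at 0.87 from CAH4 (r = -0.32) and 0.78 from CAH5 (r = -0.19). The genes closest to CAH1 were Cre12.g497700 at 0.07 and Cre14.g621475 at 0.12. Those closest to CAH2 were Cre03.g196651 at 0.07 and Cre17.g697334 at 0.09. Those closest to CAH3 were Cre06.g252200 and Cre16.g674300, both at 0.09. After its partner, the gene closest to CAH4 and to CAH5 was Cre09.g389550, at 0.21 from each. The files give none of these identifiers a name.

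Apart from members that lie next to each other, each gene model beside a member had a lower FPKM than that member in every library. Cre04.g223150 beside CAH1 and Cre04.g223000 beside CAH2 did not reach a mean of 1 FPKM, nor did Cre05.g248401 beside CAH4. Cre05.g248500, which lies 1212 bases from CAH5, had 22.4, 21.4 and 38.6 FPKM in cmd1 KO replicates 1, 2 and 3, against 32.1, 26.0 and 35.3 FPKM in WT replicates 1, 2 and 3. With TMM scaling it rose within replicates 1 and 2 by 0.96 on the log2 scale (adjusted p = 1.7e-06 in edgeR), and its effect in replicate 3 differed by -0.54 (adjusted p = 0.11 in edgeR), which did not pass. Cre09.g415650, which ends 91 bases before CAH3, had 0.899, 0.901 and 9.96 FPKM in cmd1 KO, against 1.80, 1.80 and 14.1 FPKM in WT. Both of its replicate 3 libraries were high, whereas for CAH3 the cmd1 KO library of replicate 3 was the highest of its genotype and the WT library of replicate 3 the lowest. On the other side of CAH3, 3517 bases away, Cre09.g415750 had 1.38, 1.57 and 3.39 FPKM in cmd1 KO, against 4.96, 4.36 and 4.38 FPKM in WT. Neither neighbour of CAH3 passed any of the edgeR tests with TMM scaling.

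Other genes of inorganic carbon acquisition were taken as a list of 18 identifiers of further carbonic anhydrases, transporters and regulators. The list was written from knowledge of the v5.5 annotation, and the files do not pair its identifiers with names, so only counts are given. Over all 6 libraries 0 of the 18 passed in edgeR with TMM scaling, with a median log2 difference of -0.76 against -0.05 for all tested genes, and DESeq2 called 3 lower, against 2.54% of all tested genes. Without cmd1 KO replicate 3, edgeR called 2 of them higher and 5 lower, where it called 18.1% of all tested genes higher and 20.7% lower. Within replicates 1 and 2, 4 rose and 12 fell, beside 34.3% and 37.8% of all tested genes. Their median there was -0.86, against -0.07 for all tested genes. With library sizes alone 0 rose and 17 fell within replicates 1 and 2, beside 6.36% and 78.8% of all tested genes. The interaction test marked 8 as more positive and 3 as more negative in replicate 3, beside 27.3% and 23.4% of all tested genes. By FPKM, 7 of the 18 had all cmd1 KO values below all WT values, beside 29.7% of all tested genes. With TMM scaling 3 of the 18 had them all below, beside 13.6% of all tested genes, and 2 all above, beside 9.43% of all tested genes.

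The authors' deposited table gave all 5 genes as lower in cmd1 KO, with an unadjusted p under 0.05 for each. Such a p with a lower level was held by 51.4% of all genes in the authors' deposited table. By the authors' deposited table the log2 fold change was -1.61 for CAH1, -1.48 for CAH2, -1.37 for CAH3, -1.06 for CAH4 and -1.38 for CAH5, where the median of all 17736 genes was -1.22. CAH1 had the p-value of place 13 in the authors' deposited table, at 8.6e-05. CAH5 was at 0.0041, CAH2 at 0.0025, CAH3 at 0.020 and CAH4 at 0.026 in the authors' deposited table. An edgeR fit on library sizes alone that holds a replicate 3 term gave the same 5 log2 differences within rounding, with adjusted p-values of 0.054 for CAH1, CAH2 and CAH5, 0.059 for CAH3 and 0.065 for CAH4, none past 0.05.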

How the data were processed

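RNA was sequenced from 6 cultures, with Trizol-extracted total RNA and a stranded kit, per the labels' protocols. FastQC 0.11.5, Cufflinks 2.0.0 and TopHat2 are named in the submitters' processing notes; the sources used here do not give the genome build, the counting tool or its strand and multi-read settings. Raw counts of reads per gene were deposited as whole numbers. The deposited FPKM equal the count over a whole gene length and the column total. A comparison by the authors was also deposited, with log2 fold changes, log2 CPM, F statistics (a score) and p-values, per the file headers.

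Groups came from the sample titles. edgeR 4.0.16 (glmQLFit, glmQLFTest, two-sided) was fitted to genes whose mean reached 1 FPKM, with TMM factors from those genes and genotype as the term. An SE is the log2 difference over the root of F, and intervals are 95%. limma 3.58.1, DESeq2 1.42.0 and R 4.3.3 served as alternatives, with scipy 1.17.1 (Python 3.11.15) for exact tests and matplotlib 3.10.9 for plots. Scripts were tested on simulated counts. Ratios per pair were taken from log2 CPM, adding a prior count of 1 with TMM scaling and of 0.5 with library sizes alone.

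Same-numbered libraries deviated together from their group means, at correlations of 0.53, 0.43 and 0.55 for numbers 1, 2 and 3, and the labels' protocols list the replicates in same-numbered pairs, so the replicate block was run as an alternative. The crossed pairs of numbers 1 and 2 correlated as highly, at 0.48 and 0.49, so the values set only replicate 3 apart. No 2 libraries of a genotype agreed within sampling noise. Positions came from the RefSeq table of genes for assembly v5.5, which held 17733 of the 17736 identifiers and gives no gene names; the names CAH1 to CAH5 are those in use for these loci. Relatives by protein alignment were not analysed here, and 0 columns were unused. Genes to name were the members, their 2 closest genes in pattern and the models beside them. The members and lists were chosen with earlier results of these data known.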

Additional observations from a re-analysis of the deposited data

Results flagged for a closer look

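For 4 genes the genotype effect in replicate 3 differed from that in replicates 1 and 2. The difference was tested directly, by edgeR's interaction test with TMM scaling. Replicate 3 was set apart because it was already known from these data to differ, so the test is no independent support for that split. That test marked 27.3% of all tested genes as more positive and 23.4% as more negative, and it borrows the spread of replicate 3, with 1 library per genotype, from replicates 1 and 2. The log2 difference was -2.67 for CAH4 (adjusted p = 1.1e-08 in edgeR), -2.33 for CAH5 (adjusted p = 1.2e-07 in edgeR), -1.10 for CAH1 (adjusted p = 0.00074 in edgeR) and 0.82 for CAH3 (adjusted p = 0.011 in edgeR). With library sizes alone CAH1 was at -0.03 (adjusted p = 0.92 in edgeR) and did not pass. CAH4 and CAH5 had their highest FPKM of all libraries in WT replicate 3, at 1889.8 and 1977. The part of culture state or library preparation in this was not tested.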

How the results depend on the processing

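Over all 6 libraries no alternative called any of the 5 genes, and the replicate block changed no call, with CAH1 at -0.58 and CAH4 at 0.02 (log2, cmd1 KO over WT, paired by number). DESeq2 called 6.32% of the tested genes, and with the replicate block 1082 higher and 790 lower of 10878. Without cmd1 KO replicate 3, edgeR called 18.1% higher and 20.7% lower. Every other alternative called 0 of all genes tested, so its lack of calls does not set the 5 genes apart. CAH4, at 0.01 with TMM scaling, was -1.26 with library sizes alone, -0.060 with upper quartile factors, -1.05 with limma at either pseudocount, -0.15 as the sum with CAH5, and -1.06 and -1.04 with library sizes alone plus a term for replicate 3 or the replicate block, both chosen after seeing the data; the ratio of its group means was -1.26 by FPKM and 0.0073 by TMM-scaled CPM. Leaving out 1 library gave -0.67 to -0.31 for CAH1 (nearest 0 without cmd1 KO replicate 3), -0.55 to -0.33 for CAH2, -0.67 to -0.18 for CAH3 (outermost without WT replicate 3 and nearest 0 without WT replicate 1), -0.26 to 0.48 for CAH4 and -0.57 to 0.085 for CAH5, with both genes above 0 without cmd1 KO replicate 3 or WT replicate 3 and below 0 without any of the other 4 libraries. Within replicates 1 and 2, library sizes alone called all 5 genes in place of 3. CAH1 was then at -1.60, CAH2 at -1.70, CAH4 at -0.54 and CAH5 at -0.96. Of all tested genes, library sizes alone called 78.8% lower and 6.36% higher, and TMM scaling 37.8% lower and 34.3% higher. Leaving out 1 library within replicates 1 and 2 gave -0.41 to -0.022 for CAH1 and 0.15 to 0.73 for CAH5 with TMM scaling. For the effect in replicate 3, library sizes alone gave -0.032 for CAH1 and 0.65 for CAH2, and the sum of CAH1 and CAH2 gave -1.08. That test could not be fitted without a library of replicate 3. The ratio of CAH1 to CAH2 differed by -0.12, and by -0.30 to 0.16 with 1 library left out, also chosen after seeing the data. For each of these moves the cause was not tested. CAH2, at 196 to 1175 counts, is the gene most limited by depth.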
